A study of Homo sapiens with 9 samples.

Results

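ATP-binding cassette (ABC) transporters are membrane proteins that use ATP to move lipids, sterols, metabolites, peptides and drugs across membranes, and in tumors of the ovary they are best known for pumping chemotherapeutic drugs out of the cell. The human family is divided into subfamilies A to G. Most members of A and G handle lipids and sterols, B and C hold the classical multidrug pumps together with mitochondrial, lysosomal and channel proteins, D sits mainly in the peroxisome, and E and F carry the ATP-binding domains but are not transporters and act in translation.

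The members described here were the protein-coding genes whose symbols begin with ABCA to ABCG followed by a digit, together with CFTR, which belongs to subfamily C under another name. The rule found 47 of the 60660 genes counted: 12 in A, 9 in B, 12 in C with CFTR, 4 in D, 1 in E, 4 in F and 5 in G. TAP1 and TAP2, peptide transporters of subfamily B, do not carry an ABC symbol and were kept among the related genes. The 4 members of F include ABCF2-H2BK1, a readthrough of ABCF2 into a neighboring histone gene.

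RNA sequencing was done in OVCAR3, an established cell line of human high-grade serous ovarian carcinoma, in 9 libraries of 3 groups with 3 libraries each. CTCFL, also called BORIS, is a DNA-binding paralog of CTCF that is normally restricted to the testis and that OVCAR3 already expresses. CTCFL-OE cells received 2 µg of the CTCFL expression plasmid pCpGfree-vitroHBORIS and were collected after 48 h. The labels give the CTCFL treatment of the Control libraries as None, whereas the study's methods describe a LacZ plasmid as the control of the transfection. CTCFL-KD cells were depleted of CTCFL by siRNA, and their RNA came from the experiments of an earlier publication of the same group, and an siRNA control for them is not given in the sources used here, so that the knockdown, the siRNA transfection and the experiment it was done in cannot be told apart. Each library pooled 3 technical replicates of a biological replicate per the labels, the biological replicates of each group are described there as independent, and p-values measure the spread between these libraries. Both comparisons with Control share the same 3 Control libraries.

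Total counts ran from 14332622 to 24490080 per library, so that 3 counts, taken as the detection floor, correspond to 0.117 to 0.271 CPM (read counts scaled to library size). CTCFL itself had 6, 9 and 10 counts in Control, 36, 34 and 72 in CTCFL-OE, with 0, 1 and 0 in CTCFL-KD, so the target moved as labelled in every library. Markers of ovarian carcinoma and epithelium were present, with 11 of 12 over 1 CPM in Control and ESR1 under it, whereas 1 of 9 fibroblast markers and 2 of 7 leukocyte and endothelial markers exceeded 1 CPM. The summed level of the fibroblast markers was 27.9 to 33.6 CPM in Control, 24.8 to 44.0 in CTCFL-OE and 37.7 to 42.8 in CTCFL-KD, and that of the leukocyte and endothelial markers was 7.50 to 7.81, 9.62 to 11.0 and 7.12 to 9.74. Libraries differed within groups in the share of mitochondrially encoded counts, 6.16% to 6.52% in Control against 7.40%, 12.4% and 14.9% in CTCFL-OE 1, 2 and 3 and 11.8%, 9.64% and 7.80% in CTCFL-KD 1, 2 and 3. CTCFL-KD 1 also stood apart in transcript length, since the deviation of a gene from its group mean correlated with its length at a Spearman rho of -0.588 in this library, against 0.562 and 0.546 in the other 2, across 12995 genes that are not independent replicates.

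In Control cells the most abundant members were not transporters. Levels of different genes were compared as CPM per kilobase of merged exons, and on this scale ABCE1, which splits ribosomes for recycling, was at 28.8 ± 1.59 (SD, n = 3) and ABCF1, which promotes translation initiation, at 26.6 ± 1.58, a difference within their spread. The most abundant transporter was ABCC1, the multidrug resistance protein MRP1 that exports glutathione conjugates and many drugs, at 16.4 ± 0.336. ABCD3, which brings branched-chain and bile acid precursors into the peroxisome, followed at 10.1 ± 0.523, and then ABCF3 at 8.85 ± 0.551. ABCA2, the most abundant member of A and an endolysosomal lipid transporter, stood at 2.45 ± 0.0634 and ABCG2 at 0.236 ± 0.0860, which did not differ from ABCG1 at 0.191 ± 0.0377 beyond the spread.

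**Figure D1:**
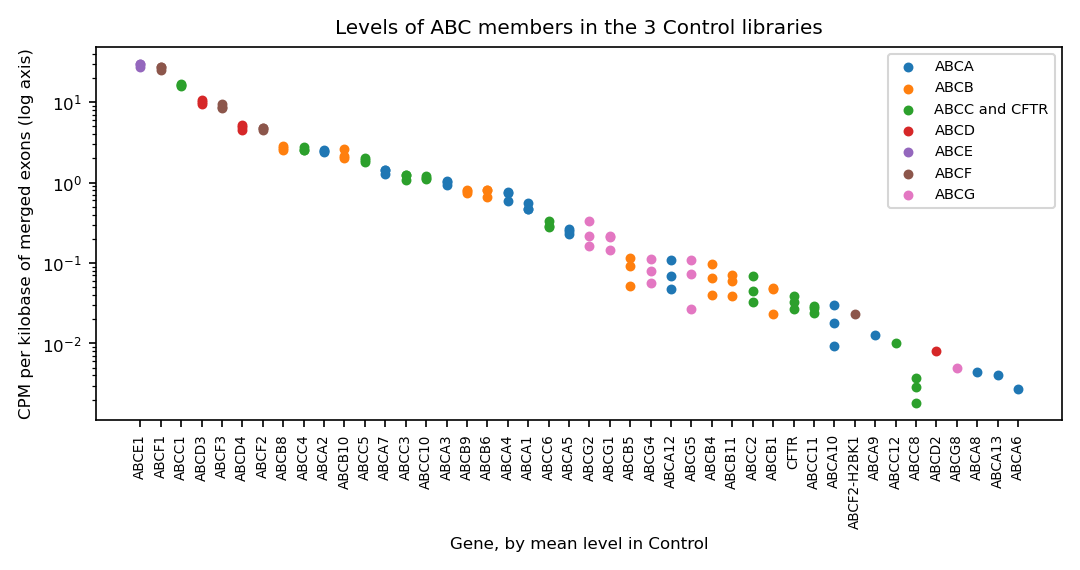
Level of 44 members in the 3 Control libraries as CPM per kilobase of merged exons on a log axis, ordered by mean and colored by subfamily, with one point per library. Libraries with 0 counts are not drawn, and ABCC9, at 0 in all 3, is left out; ABCE1 and ABCF1 lie at the top at 28.8 and 26.6, and ABCC1 is the highest transporter at 16.4.

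In units of CPM, which is used for all comparisons of a gene with itself, 16 of the 47 members were over 10 CPM in Control, 10 lay between 1 and 10 CPM and 21 were at or under 1 CPM. The low-count filter kept 33 members for testing. The other 14 had at most 8 counts in any library: ABCG5 and ABCB1 reached 8 counts, ABCC8 and ABCC11 reached 7, ABCA10 and ABCA13 reached 5, ABCA8, ABCA9 and ABCG8 reached 3, ABCA6 and ABCC12 reached 2, and ABCC9, ABCD2 and ABCF2-H2BK1 reached 1. The set included P-glycoprotein (ABCB1, chr7:87503017-87713323, minus strand), the pump most often linked to paclitaxel resistance, which had 3, 8 and 6 counts in Control, 0, 4 and 5 in CTCFL-OE, with 0, 2 and 0 in CTCFL-KD. All CTCFL-KD libraries were below all Control libraries, and each was under the detection floor. With so few counts ABCB1 did not enter the test, and no fold change is given. Its neighbor on chromosome 7, the phosphatidylcholine transporter ABCB4, was also low at 0.501, 0.311 and 0.760 CPM in Control.

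Gene positions are those of GENCODE 44 on GRCh38, and promoter sequences are from RefSeq on GRCh38.p14, 250 bases before the start of transcription, read 5′ to 3′ on the strand of the gene. The table holds a promoter for 37 of the 47 members, and is without one for, among others, ABCA4, ABCA8, ABCB4, ABCB5, ABCC1, ABCC3, ABCC8 and ABCG1. On both strands 4 sets of letters were searched: CC, 3 free bases, AG, 2 free bases and GGC, the core shared by binding sites of CTCF and CTCFL, GGGCGG, the GC box bound by SP1, CACGTG, the E-box bound by USF and MYC proteins, and GGT, 1 free base and A, repeated after 5 free bases, a direct repeat spaced by 4 bases of the kind bound by the liver X receptors (LXR), of which the element of ABCA1 is a textbook case. The CTCF-type core was found in 4 of the 37 promoters (ABCA3, ABCC4, ABCD2 and ABCE1) and in 8.90% of all 34788 promoters of this length. The GC box was found in 18 of 37 and in 42.6% of all, the E-box in 6 of 37 and in 6.31% of all, and the direct repeat in 1 of 37 and in 0.532% of all. These matches describe letters in the window and were not related to binding. Promoters of 4 members on which the results turn are shown, with the matched letters in capitals: 2 lipid transporters that rose in CTCFL-KD, the member that passed the test in both comparisons with Control, and the member with the highest mean level per kilobase in Control, which fell.

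ABCA1 (chr9:104928156-104928405, minus strand; 3 GC boxes, 1 E-box and 1 direct repeat): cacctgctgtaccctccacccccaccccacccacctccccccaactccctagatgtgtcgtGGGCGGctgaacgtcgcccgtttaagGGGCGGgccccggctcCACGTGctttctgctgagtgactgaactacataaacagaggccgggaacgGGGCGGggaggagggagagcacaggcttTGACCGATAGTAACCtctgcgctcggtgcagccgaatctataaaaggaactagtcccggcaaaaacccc
ABCA3 (chr16:2340729-2340978, minus strand; 2 CTCF-type cores on the opposite strand and 1 GC box): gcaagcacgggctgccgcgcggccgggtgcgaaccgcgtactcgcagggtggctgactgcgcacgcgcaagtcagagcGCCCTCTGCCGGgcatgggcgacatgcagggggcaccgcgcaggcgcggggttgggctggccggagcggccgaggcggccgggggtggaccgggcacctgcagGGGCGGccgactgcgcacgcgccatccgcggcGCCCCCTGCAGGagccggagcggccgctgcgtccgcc
ABCC6 (chr16:16223495-16223744, minus strand; no match): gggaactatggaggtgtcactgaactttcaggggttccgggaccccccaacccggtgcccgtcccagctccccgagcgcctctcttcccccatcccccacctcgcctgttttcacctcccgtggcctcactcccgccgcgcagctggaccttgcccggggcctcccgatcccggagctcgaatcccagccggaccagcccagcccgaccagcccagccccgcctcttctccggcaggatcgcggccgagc
ABCE1 (chr4:145098061-145098310, plus strand; 1 CTCF-type core): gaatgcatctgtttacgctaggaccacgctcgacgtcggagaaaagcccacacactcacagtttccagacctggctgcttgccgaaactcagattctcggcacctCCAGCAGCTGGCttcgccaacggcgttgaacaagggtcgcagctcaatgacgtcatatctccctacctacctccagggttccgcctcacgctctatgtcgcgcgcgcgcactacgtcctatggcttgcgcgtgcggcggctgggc

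The first comparison asked which members changed when CTCFL was raised above the level that OVCAR3 already has. At an adjusted p under 0.1, the threshold the study used for this comparison, 1 of the 33 members tested passed, beside 3.15% of all 17794 genes tested. It was also the only one among them that passed the limit of a differentially expressed gene (DEG), a log2 fold change beyond 1, beside 2.07% of all genes. No member was called lower, beside 1.16% of all genes, or a lower DEG, beside 0.702%. This member was ABCC6 (chr16:16149565-16223522, minus strand), an exporter of liver and kidney whose loss causes the ectopic mineralization disorder pseudoxanthoma elasticum. In Control its level was 2.30, 1.94 and 1.98 CPM, and in CTCFL-OE it was 3.56, 6.43 and 5.96 CPM. The groups did not overlap, with the lowest CTCFL-OE library, replicate 1, above the highest Control library. ABCC6 rose 2.55-fold (log2 fold change 1.35 ± 0.26 SE, adjusted p = 0.0387).

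The ABCC6 call in CTCFL-OE was lost when any of the 3 Control libraries, CTCFL-OE 2 or CTCFL-OE 3 was left out, with adjusted p up to 0.223. ABCC6 also has near-identical pseudogene copies on chromosome 16 with which it can share reads. ABCC6P1 had 26, 36 and 24 counts in Control, 45, 52 and 46 in CTCFL-OE, with 11, 24 and 19 in CTCFL-KD. It passed the test in CTCFL-OE as well (log2 fold change 0.94 ± 0.25 SE, adjusted p = 0.0939), whereas ABCC6P2 had 0.90 ± 0.30 (adjusted p = 0.166). ABCC1 lies 6.31 kb from ABCC6 on the same chromosome, and its level was 140.2, 144.0 and 146.0 CPM in Control and 127, 237 and 277 CPM in CTCFL-OE. CTCFL-OE 1 was thus below all Control libraries and the other 2 above them, and ABCC1 did not pass the test (log2 fold change 0.57 ± 0.26 SE, adjusted p = 0.277).

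This split between CTCFL-OE libraries ran through much of the family. Relative to the Control mean, the median log2 ratio of the 33 members was -0.01 in CTCFL-OE 1, 0.49 in CTCFL-OE 2 and 0.47 in CTCFL-OE 3, while the median over all genes lay between -0.04 and -0.03 in all 3. CTCFL-OE 1 was the lowest library of its group for 22 of the 33 members and for 40.3% of all genes. It also had the lowest mitochondrial share of its group, and whether this had a part in the split was not tested. Without CTCFL-OE 1, 13 members passed (12 higher, 1 lower), beside 15.1% of all genes. The number depended on CTCFL-KD 1 too, which enters the shared estimate of the spread, and without it 18 members passed (14 higher, 4 lower), beside 27.4% of all genes. Without any one of the Control libraries, CTCFL-OE 2 or CTCFL-OE 3 no member passed in edgeR's test, and neither did more than 0.635% of all genes. With all libraries, 14 members were higher and 3 lower at an unadjusted p under 0.05, beside 11.0% and 6.72% of all genes. DESeq2 on all 9 libraries called 8 (7 higher, 1 lower), beside 5.66% and 2.89% of all genes.

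**Figure D2:**
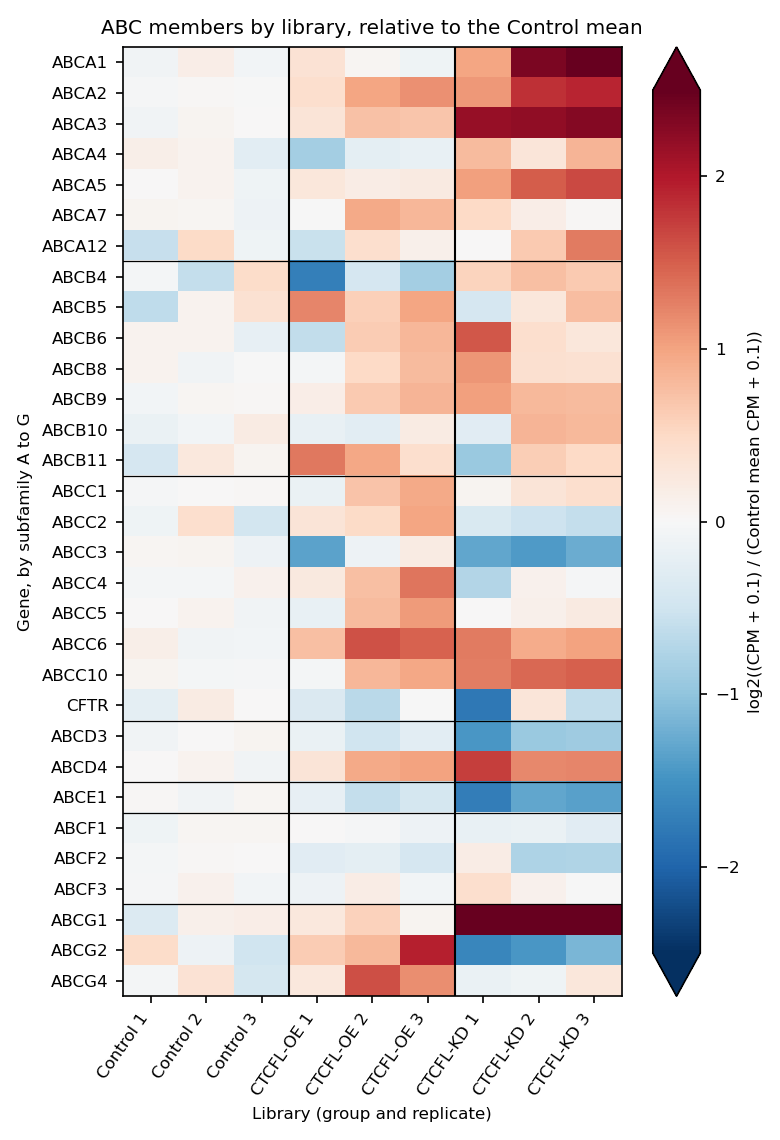
Heat map of 31 of the 33 members tested (rows, by subfamily) in the 9 libraries (columns), as log2 of (CPM + 0.1) over (Control mean CPM + 0.1), red above and blue below the Control mean, with the color scale ending at 2.5 in both directions. Many rows are paler in CTCFL-OE 1 than in CTCFL-OE 2 and 3, and ABCA1, ABCA3 and ABCG1 are red in all 3 CTCFL-KD libraries.

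Values of the drug efflux pumps in CTCFL-OE were mostly above Control but none of the 8 tested passed in edgeR's quasi-likelihood test, beside 3.15% of all genes. Their median log2 fold change was 0.67, beside -0.01 for all genes tested. At an unadjusted p under 0.05, 6 were higher and 0 lower, beside 11.0% and 6.72% of all genes. DESeq2 on all 9 libraries called 2 higher and 0 lower, beside 5.66% and 2.89%. The groups did not overlap for 3 of the 8, all higher, beside 16.3% of all genes. In CTCFL-OE 1 the pumps ABCC1, ABCC3, ABCC5 and ABCC10 were below their Control mean, and the other pumps tested were above it. ABCG2 (BCRP, chr4:88090150-88231628, minus strand), which exports topotecan, mitoxantrone and urate, was at 1.85, 1.20 and 0.912 CPM in Control and at 2.10, 2.40 and 5.41 CPM in CTCFL-OE. All CTCFL-OE libraries were above all Control libraries, and the range within CTCFL-OE was larger than the gap to Control (log2 fold change 1.30 ± 0.39 SE, adjusted p = 0.137). ABCG2 passed in 8 of 19 alternatives, with adjusted p from 0.00762 to 0.467. Over all 33 members the groups did not overlap for 11 that were higher and 4 that were lower in CTCFL-OE, beside 16.3% and 20.8% of all genes, or 15 in all, beside 37.1% of all genes. Among the 4 that were lower were ABCD3, ABCE1 and ABCF2, with an adjusted p of 0.281 or more in each.

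The second comparison asked which members changed when CTCFL was depleted. At an adjusted p under 0.05, 15 of the 33 members (45.5%) passed, beside 38.2% of all genes tested, so that the share of changed members was near the background. The direction was higher for 10, beside 21.4% of all genes, and lower for 5, beside 16.8%. DEGs numbered 12, beside 23.2% of all genes, with 8 higher and 4 lower beside 15.3% and 7.94%. The median log2 fold change of the members was 0.32 and that of all genes 0.08. The groups had no overlap for 20 members, beside 56.3%, with 14 higher and 6 lower beside 28.7% and 27.6%. By role, of the 10 lipid and sterol exporters tested, 6 rose and none fell, both lysosomal members rose, and the 8 drug efflux pumps held 1 that rose, 2 that fell and 5 that did not pass, a share of 37.5% near that of all genes. Differences between roles were not tested.

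**Figure D3:**
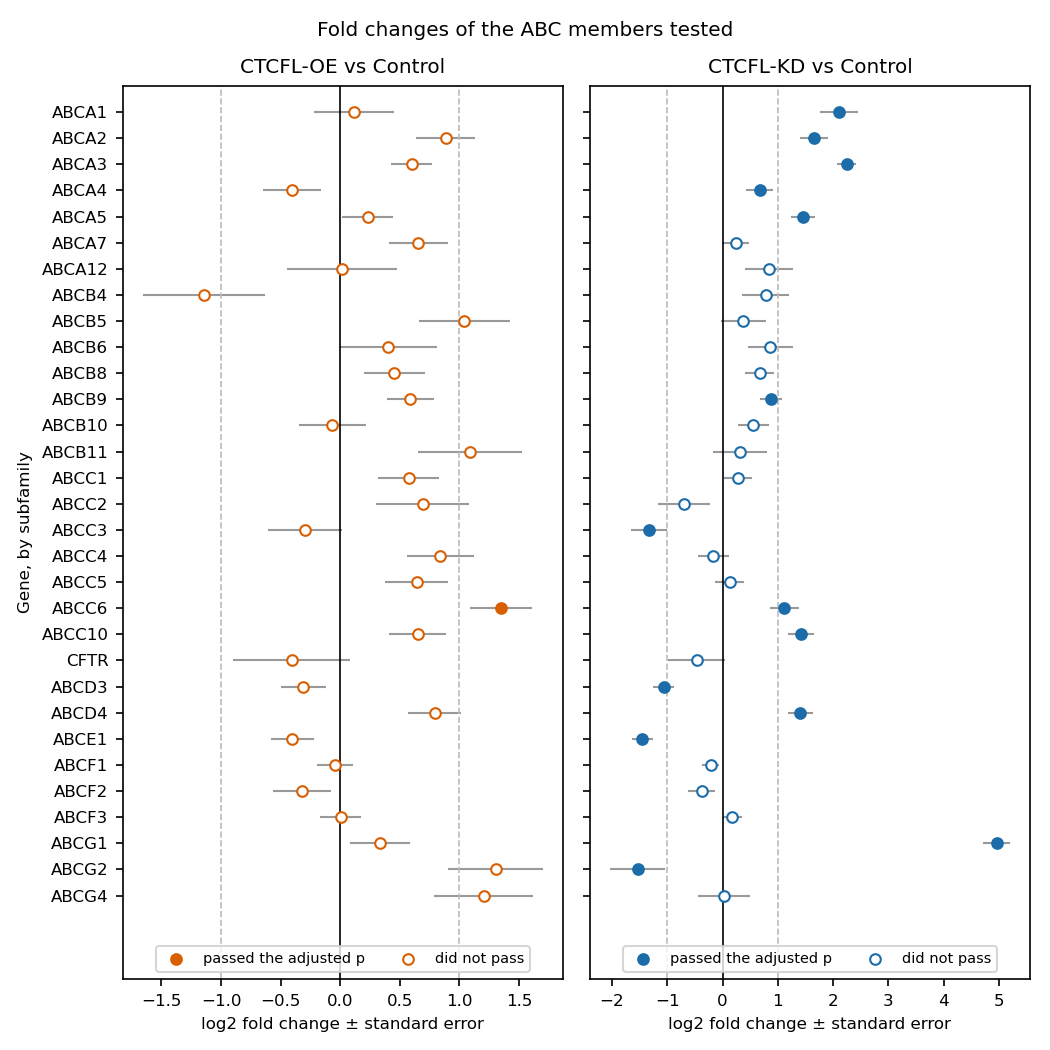
Log2 fold change with its standard error for 31 of the 33 members tested, in CTCFL-OE against Control on the left and CTCFL-KD against Control on the right, on different horizontal scales. Filled points passed the adjusted p threshold of 0.1 or 0.05, open points did not, and dashed lines mark a log2 fold change of 1; both panels use the same 3 Control libraries.

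The member with the highest fold change was ABCG1 (chr21:42199689-42297244, plus strand), which loads cholesterol onto high-density lipoprotein and is a known target of LXR. Its level was 0.902, 1.28 and 1.32 CPM in Control, 1.41, 1.78 and 1.23 CPM in CTCFL-OE, with 38.3, 30.8 and 40.5 CPM in CTCFL-KD. Control and CTCFL-OE overlapped, and all CTCFL-KD libraries lay far above both. ABCG1 rose 31.0-fold in CTCFL-KD (log2 fold change 4.96 ± 0.24 SE, adjusted p = 7.21e-07).

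ABCA1 (chr9:104781006-104928155, minus strand), whose promoter with the direct repeat is shown above, transfers cholesterol and phospholipid to lipid-poor apolipoprotein A-I. It was at 5.31, 6.33 and 5.37 CPM in Control, at 7.30, 5.90 and 5.22 CPM in CTCFL-OE, with 11.4, 29.4 and 32.4 CPM in CTCFL-KD. CTCFL-KD 1 was well under the other 2 yet above every Control and CTCFL-OE library. ABCA1 rose 4.31-fold in CTCFL-KD (log2 fold change 2.11 ± 0.34 SE, adjusted p = 0.000825), and without CTCFL-KD 1 the log2 fold change was 2.44.

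Of the 7 members of subfamily A that could be tested, ABCA1 among them, 5 rose and 0 fell, beside 21.4% and 16.8% of all genes, with a median log2 fold change of 1.46 beside 0.08. At an unadjusted p under 0.05 the number lower was also 0, as it was in DESeq2 on all 9 libraries. ABCA3 (chr16:2275881-2340746, minus strand), which packs phospholipid into lamellar bodies in lung, was at 7.31, 8.20 and 7.85 CPM in Control, 9.71, 13.0 and 12.7 in CTCFL-OE, with 35.5, 36.7 and 38.7 in CTCFL-KD. The 3 groups did not overlap with each other, and the CTCFL-KD libraries were close together. ABCA3 rose 4.74-fold in CTCFL-KD (log2 fold change 2.25 ± 0.17 SE, adjusted p = 9.23e-06).

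ABCA2 (chr9:137007234-137028915, minus strand) was at 27.5, 28.9 and 28.1 CPM in Control, 38.0, 55.9 and 62.5 in CTCFL-OE, with 60.0, 100.1 and 105.5 in CTCFL-KD. Here the lowest CTCFL-KD library, replicate 1, was under the highest CTCFL-OE library, and all libraries of both groups were above Control. ABCA2 rose 3.14-fold in CTCFL-KD (log2 fold change 1.65 ± 0.25 SE, adjusted p = 0.000593), while in CTCFL-OE it had 0.89 ± 0.25 (adjusted p = 0.113). ABCA5 (chr17:69244311-69327244, minus strand), a lysosomal and late endosomal protein that is the last gene of a chromosome 17 cluster with ABCA8, ABCA9, ABCA6 and ABCA10, was at 3.31, 3.46 and 3.04 CPM in Control, 4.01, 3.71 and 3.81 in CTCFL-OE, with 6.76, 9.57 and 10.5 in CTCFL-KD. It rose 2.75-fold in CTCFL-KD (log2 fold change 1.46 ± 0.21 SE, adjusted p = 0.000423). The other 4 genes of that cluster had at most 5 counts in any library. ABCA4, the retinoid flippase of photoreceptors, rose by 0.67 ± 0.24 on the log2 scale (adjusted p = 0.0479), a call that was lost with the replicate block (adjusted p = 0.0750) and in 12 of 20 alternatives in all. ABCA7 and ABCA12 did not pass.

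**Figure D4:**
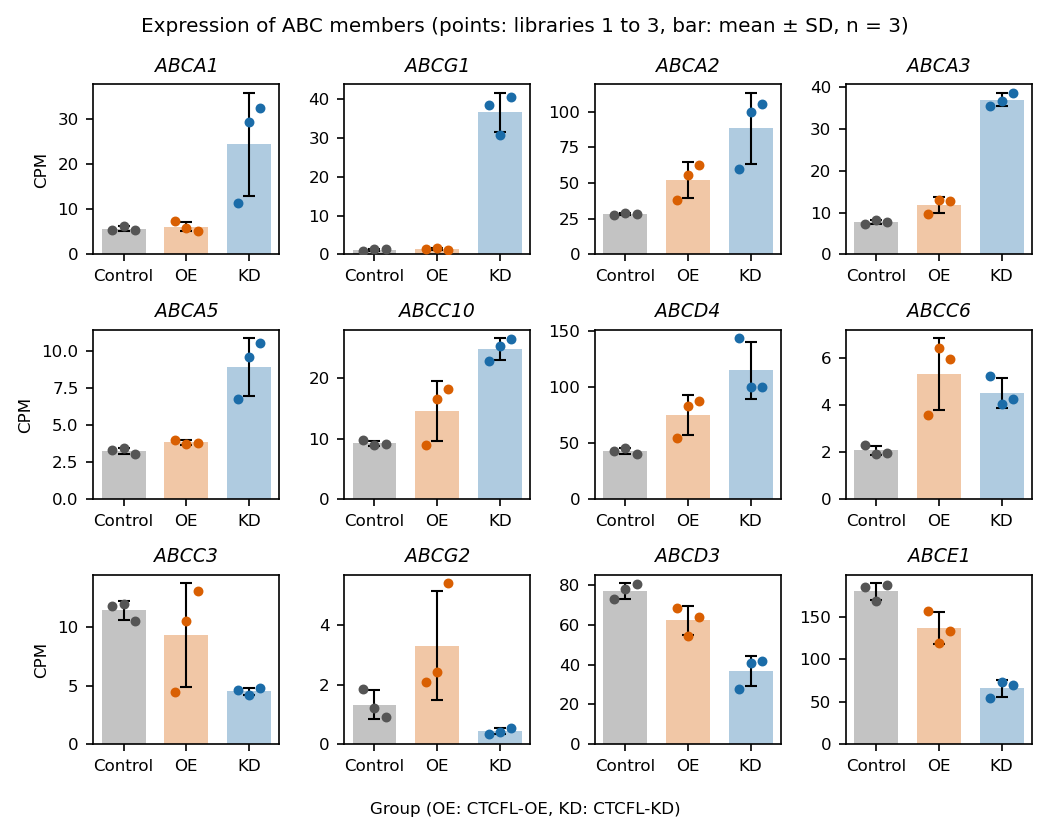
CPM of 12 named members in Control, CTCFL-OE (OE) and CTCFL-KD (KD) on separate linear axes that start at 0, with points for libraries 1 to 3 from left to right and bars for the mean ± SD (n = 3). ABCG1 goes from 1.17 CPM in Control to 36.5 CPM in CTCFL-KD, and ABCE1 from 180.1 to 65.8 CPM.

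Summed over the 17 lipid and sterol exporters, the level was 66.6, 70.8 and 65.2 CPM in Control, 78.3, 114.3 and 117.3 CPM in CTCFL-OE, with 183.5, 232.3 and 256.3 CPM in CTCFL-KD. No CTCFL-KD library overlapped with the other groups in this sum, in which the abundant genes weigh most. The promoters of the members that rose in CTCFL-KD and have an entry in the table held a GC box in 5 of 8, an E-box in 3 of 8 and a CTCF-type core in 1 of 8. Among the 14 members with an entry that were tested and did not pass, the GC box was in 9, the E-box in 2 and the CTCF-type core in 1.

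Genes that work with these exporters were given by a list of sterol and phospholipid efflux partners, of which 11 of the 15 tested rose in CTCFL-KD and 0 fell (73.3% higher, beside 21.4% of all genes), with a median log2 fold change of 1.20 beside 0.08. None was lower at an unadjusted p under 0.05 or in DESeq2. CYP27A1, which makes the LXR ligand 27-hydroxycholesterol, had 1, 1 and 0 counts in Control, 0 in every CTCFL-OE library and 55, 37 and 58 in CTCFL-KD. APOE, a lipid acceptor, rose from 14.02, 15.62 and 13.62 CPM in Control to 733.7, 209.6 and 238.2 CPM in CTCFL-KD (log2 fold change 4.77 ± 0.54 SE, adjusted p = 9.41e-05), and APOA1, the acceptor of ABCA1, rose from 1.45, 1.67 and 1.32 CPM to 19.9, 6.48 and 6.46 CPM (2.86 ± 0.47, adjusted p = 0.000975). CTCFL-KD 1 was far above the other 2 in both, and without it the log2 fold changes were 3.96 and 2.12. In CTCFL-OE 0 of the 15 passed, beside 3.15% of all genes. At an unadjusted p under 0.05, 4 were higher and 0 lower, beside 11.0% and 6.72%. DESeq2 called 3 higher and 0 lower, beside 5.66% and 2.89%. In the list of regulators of efflux genes, 3 of 15 rose and 2 fell in CTCFL-KD, a share of 33.3% near the 38.2% of all genes. The rise of PPARD and the fall of YBX1 were lost without any 1 of the Control libraries and without CTCFL-KD 2 or 3. Their adjusted p reached 0.143 and 0.108. SREBF1, an LXR target that drives fatty acid synthesis, rose by 2.09 ± 0.21 on the log2 scale (adjusted p = 4e-05), SREBF2, which drives cholesterol synthesis, rose by 1.46 ± 0.21 (adjusted p = 0.000443), and the coactivator PPARGC1A fell by 1.41 ± 0.19 (adjusted p = 0.000295). The LXR genes themselves did not pass, with log2 fold changes of 0.03 for NR1H3 (adjusted p = 0.932) and 0.39 for NR1H2 (adjusted p = 0.116). PPARGC1A was also the member of that list that passed in CTCFL-OE, where it rose by 0.98 ± 0.18 (adjusted p = 0.029), a call lost without CTCFL-OE 2 or any 1 of the Control libraries (adjusted p up to 0.222). The summed level of the ovarian carcinoma and epithelial markers was 5386 to 5494 CPM in Control, 4874 to 5124 CPM in CTCFL-OE and 9611 to 15730 CPM in CTCFL-KD, a sum in which the abundant keratins weigh most. Of the 11 epithelial markers tested 8 rose in CTCFL-KD and 2 fell, KRT7 and WT1, calls that were lost without CTCFL-KD 2 or 3 for KRT7 (adjusted p up to 0.0519) and without any 1 of the Control libraries for WT1 (adjusted p up to 0.0836). Among the markers that rose, the call of CDH1 was lost without Control 1 or 3 (adjusted p up to 0.0628). FOLR1 rose by 2.79 on the log2 scale, or by 2.08 without CTCFL-KD 1. In CTCFL-OE none of the 11 passed in edgeR's test, and their median log2 fold change was 0.25. Both at an unadjusted p under 0.05 and in DESeq2, 2 were higher and 1 lower. Over all genes 11.0% were higher and 6.72% lower at the unadjusted p, and 5.66% and 2.89% in DESeq2. In CTCFL-KD, beside 21.4% higher and 16.8% lower over all genes, 2 of the 4 fibroblast markers tested rose and 0 fell. These were POSTN, with at most 18 counts in a library, and COL1A2, the latter with 0 counts in every Control library and 156, 239 and 247 in CTCFL-KD, while COL1A1, the marker with the most counts, had a log2 fold change of -0.36 (adjusted p = 0.221). None of the 4 was lower in DESeq2 or at an unadjusted p under 0.05. Their part in these results was not tested.

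Among the drug efflux pumps, ABCC10 (MRP7, chr6:43427366-43450427, plus strand), a pump that carries taxanes, was at 9.77, 8.98 and 9.17 CPM in Control, 8.98, 16.6 and 18.3 in CTCFL-OE, with 22.8, 25.3 and 26.5 in CTCFL-KD. CTCFL-OE 1 was within the Control range and all CTCFL-KD libraries were above every other library. ABCC10 rose 2.67-fold in CTCFL-KD (log2 fold change 1.42 ± 0.24 SE, adjusted p = 0.00124). ABCC3 (MRP3, chr17:50634777-50692253, plus strand), an exporter of glucuronides and bile salts, moved the other way. Its level was 11.8, 11.9 and 10.5 CPM in Control, 4.42, 10.5 and 13.1 in CTCFL-OE, with 4.60, 4.22 and 4.77 in CTCFL-KD. CTCFL-OE reached from the level of CTCFL-KD, in replicate 1, to above that of Control, in replicate 3, and between Control and CTCFL-KD there was no overlap. ABCC3 was 2.52-fold lower in CTCFL-KD (log2 fold change -1.33 ± 0.33 SE, adjusted p = 0.00891).

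ABCG2 was at 0.361, 0.416 and 0.548 CPM in CTCFL-KD, from 4, 7 and 10 counts, all below the lowest Control library. It was 2.90-fold lower than in Control (log2 fold change -1.54 ± 0.50 SE, adjusted p = 0.032). This call was lost without Control 1 or 2 and without each CTCFL-KD library, as well as when trends with transcript length and GC content were removed, with adjusted p up to 0.105. ABCC1, the most abundant pump, was at 150.2, 179.8 and 193.0 CPM in CTCFL-KD and did not pass (log2 fold change 0.28 ± 0.26 SE, adjusted p = 0.409). The summed level of the 10 drug efflux genes, of which ABCC1 makes up the larger part, was 208 to 213 CPM in Control, 191 to 418 CPM in CTCFL-OE and 214 to 274 CPM in CTCFL-KD, so that the CTCFL-OE range enclosed both other groups.

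Of the 22 enzymes and transporters tested that work beside the efflux pumps, 12 rose and 3 fell in CTCFL-KD (54.5% and 13.6%, beside 21.4% and 16.8% of all genes), with a median log2 fold change of 0.77. The largest changes were rises of GSTA4, which conjugates lipid peroxidation products to glutathione (log2 fold change 2.44 ± 0.25 SE), MGST3, a microsomal glutathione transferase (2.27 ± 0.27), and SULT2B1, a sterol sulfotransferase (2.12 ± 0.50). In CTCFL-OE 0 of the 22 passed in edgeR's test, beside 3.15% of all genes. At an unadjusted p under 0.05, 1 was higher and 3 lower, beside 11.0% and 6.72%. DESeq2 called 1 higher and 0 lower, beside 5.66% and 2.89%.

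ABCC6 passed in CTCFL-KD too, at 5.23, 4.04 and 4.27 CPM. The libraries lay above all Control libraries and overlapped with CTCFL-OE. ABCC6 was 2.17-fold higher than Control (log2 fold change 1.11 ± 0.26 SE, adjusted p = 0.00722), and this call held in all 20 alternatives. Tested directly, CTCFL-KD and CTCFL-OE differed by -0.24 ± 0.25 in ABCC6 (adjusted p = 0.507). Since the Control libraries are shared, the changes in ABCC6 against Control in CTCFL-OE and CTCFL-KD are not independent. The pseudogene ABCC6P1 did not pass in CTCFL-KD, with a log2 fold change of -0.17. In the list of ectopic mineralization genes, which holds the enzymes and inhibitors of the same pathway, 5 of 9 rose and 1 fell in CTCFL-KD (55.6% and 11.1%, beside 21.4% and 16.8% of all genes). SPP1, the mineral-binding osteopontin, fell by 3.03 ± 0.52 on the log2 scale, while NT5E, which makes adenosine from AMP, rose by 2.43 ± 0.39 and VKORC1, the vitamin K reductase, by 2.31 ± 0.48, or by 1.36 without CTCFL-KD 1. None of the 9 passed in CTCFL-OE in edgeR's test, beside 3.15% of all genes. At an unadjusted p under 0.05, 4 were higher and 0 lower there, beside 11.0% and 6.72%. DESeq2 called 2 higher and 0 lower, beside 5.66% and 2.89%.

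The peroxisomal importer ABCD3 (chr1:94418389-94518666, plus strand) was at 72.7, 78.0 and 80.5 CPM in Control, 68.5, 54.3 and 63.9 in CTCFL-OE, with 27.9, 40.6 and 41.7 in CTCFL-KD. The 3 groups did not overlap, and CTCFL-KD 1 was the lowest library. ABCD3 was 2.10-fold lower in CTCFL-KD (log2 fold change -1.07 ± 0.19 SE, adjusted p = 0.00163). In the list of peroxisomal import and beta-oxidation genes, which also holds the cobalamin genes LMBRD1 and MMACHC, 21 were tested. Of these 3 rose and 4 fell in CTCFL-KD, a share of 33.3% near the 38.2% of all genes. SLC27A2, a very-long-chain acyl-CoA synthetase, rose by 2.76 ± 0.27, AMACR, the racemase of branched-chain fatty acids, fell by 1.46 ± 0.32, and LMBRD1, a lysosomal cobalamin exporter placed in this list, rose by 1.29 ± 0.24. In CTCFL-OE 2 of the 21 fell, beside 1.16% of all genes, among them AMACR by 1.37 ± 0.31 (adjusted p = 0.0664), a call lost without CTCFL-OE 2, CTCFL-OE 3 or any 1 of the Control libraries (adjusted p up to 0.267).

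ABCD4 (chr14:74285269-74303055, minus strand) is the member of D that works in the lysosome, where it releases cobalamin together with LMBRD1. It was at 43.2, 45.8 and 40.4 CPM in Control, 54.3, 82.9 and 87.0 in CTCFL-OE, with 143.8, 100 and 100.2 in CTCFL-KD. The groups did not overlap, and the order was Control, CTCFL-OE, CTCFL-KD in every library. ABCD4 rose 2.66-fold in CTCFL-KD (log2 fold change 1.41 ± 0.22 SE, adjusted p = 0.000807), and in CTCFL-OE it had 0.79 ± 0.22 (adjusted p = 0.115). The other lysosomal member, ABCB9, a peptide transporter, rose by 0.88 ± 0.20 in CTCFL-KD (adjusted p = 0.00564). ABCB9 shares 20.7%, 12.5% and 12.0% of its exon length with 3 genes on the opposite strand, and the strand setting of the counting is not given in the sources used here, so its value is uncertain. Among the peptide transporters and loading genes, 5 of 9 rose in CTCFL-KD (55.6%, beside 21.4% of all genes), led by TAPBPL (log2 fold change 2.36 ± 0.23), PDIA3 (1.30 ± 0.25) and TAPBP (0.94 ± 0.29, lost without any 1 of the Control libraries, adjusted p up to 0.0861), while TAP1 and TAP2 did not pass (0.03 with adjusted p = 0.944 and 0.15 with adjusted p = 0.681). The rises of B2M and CALR were also lost without any 1 of the Control libraries (adjusted p up to 0.0794 and 0.098). None of the 9 fell, at an unadjusted p under 0.05 or in DESeq2 either. In CTCFL-OE 0 of the 9 passed in edgeR's test, beside 3.15% of all genes, or in DESeq2, beside 5.66% higher and 2.89% lower. At an unadjusted p under 0.05, 2 were higher, beside 11.0%.

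**Figure D5:**
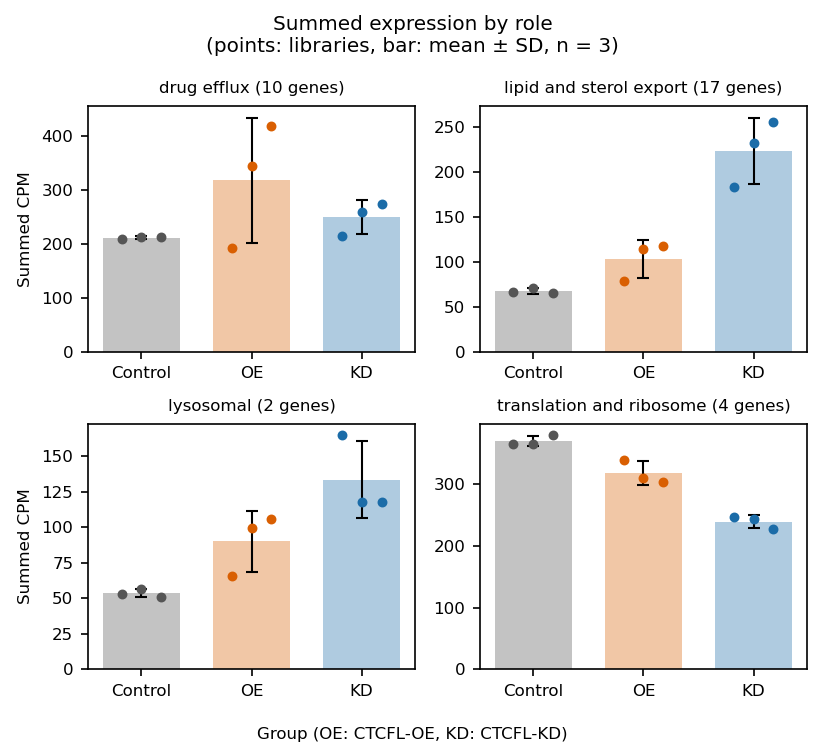
Summed CPM of the members of 4 roles in each library on linear axes that start at 0, with points for libraries 1 to 3 from left to right and bars for the mean ± SD (n = 3). The lipid and sterol exporters lie between 183.5 and 256.3 CPM in CTCFL-KD against 65.2 to 70.8 CPM in Control.

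Mitochondrial members handle heme precursors, iron-sulfur cluster compounds and potassium. Of the 4 mitochondrial members 0 passed in edgeR's test in CTCFL-KD, beside 38.2% of all genes. There 1 was higher at an unadjusted p under 0.05, beside 26.8%, and 1 in DESeq2, beside 23.0%. In CTCFL-OE 0 passed by any of these, beside 3.15% of all genes in edgeR's test. Among heme and iron-sulfur cluster genes 1 of 18 rose in CTCFL-KD, the heme enzyme PPOX (0.76 ± 0.24, lost without any 1 of the Control libraries, adjusted p up to 0.117), and 1 fell, the last enzyme of the pathway FECH (-0.99 ± 0.19), a share of 11.1% in all beside 38.2% of all genes. ABCB6 shares 54.6% of its exon length with an overlapping readthrough gene, so its counts may be split.

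The members that passed in neither comparison with Control numbered 18 of the 33, with adjusted p from 0.165 (ABCC4) to 0.996 (ABCF3) in CTCFL-OE and from 0.0578 (ABCB8) to 0.970 (ABCG4) in CTCFL-KD. Besides those described elsewhere they included ABCA7, a phospholipid transporter expressed in microglia, ABCA12, which fills the lamellar granules of skin, ABCB5, a marker of melanoma-initiating cells, ABCB8 and ABCB10 of the mitochondrion, ABCB11, the bile salt export pump, ABCC5, an exporter of cyclic nucleotides and antifolates, and ABCG4, a sterol transporter of the nervous system. In ABCG4 the level was 0.501, 0.699 and 0.354 CPM in Control, 0.638, 1.78 and 1.29 in CTCFL-OE, with 0.451, 0.476 and 0.657 in CTCFL-KD, and Control overlapped with both.

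CFTR, the chloride channel of the family, was at the lower edge of what could be tested, with at most 17 counts in a library, and did not pass in CTCFL-OE or CTCFL-KD. Its partners and those of the potassium channel regulators ABCC8 and ABCC9 split in CTCFL-KD into 3 of 13 that rose and 3 that fell (23.1% each, beside 21.4% and 16.8% of all genes). KCNJ11, the potassium channel pore that pairs with ABCC8, rose by 3.36 ± 0.28 on the log2 scale in CTCFL-KD (adjusted p = 1.24e-05) and by 1.29 ± 0.29 in CTCFL-OE (adjusted p = 0.0657, up to 0.305 without CTCFL-OE 2, CTCFL-OE 3 or any 1 of the Control libraries), although ABCC8 had at most 7 counts in any library. The chloride transporter SLC26A9 fell by 2.03 ± 0.35 and the sodium channel subunit SCNN1A rose by 1.92 ± 0.21.

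Of the members acting in translation, ABCE1 (chr4:145098288-145129524, plus strand) fell. It was at 184.9, 168.7 and 186.8 CPM in Control, 156.8, 119.5 and 133.0 in CTCFL-OE, with 54.1, 73.0 and 70.2 in CTCFL-KD. Every CTCFL-KD library was below every CTCFL-OE library, and these were below every Control library. ABCE1 was 2.74-fold lower in CTCFL-KD (log2 fold change -1.45 ± 0.19 SE, adjusted p = 0.0002), and in CTCFL-OE it had -0.40 ± 0.18 (adjusted p = 0.281). ABCF1 (chr6:30571393-30597179, plus strand) was at 111.6, 123.3 and 124.3 CPM in Control, 121.2, 117.6 and 109.6 in CTCFL-OE, with 104.9, 106.9 and 97.8 in CTCFL-KD, a difference that did not pass (-0.22 ± 0.15, adjusted p = 0.283). ABCF2 and ABCF3 did not pass in either comparison, and ABCF2 shares 37.1% of its exon length with ABCF2-H2BK1. In the list of ribosome recycling and start genes 7 of 16 fell in CTCFL-KD (43.8%, beside 16.8% of all genes), with a median log2 fold change of -0.43, and 0 rose, in DESeq2 and at an unadjusted p under 0.05 as well. DENR, which acts after ABCE1 in recycling, fell by 1.07 ± 0.22, the termination factor ETF1 by 1.05 ± 0.17 and the initiation factor subunit EIF2S3 by 0.96 ± 0.18. In CTCFL-OE 0 of the 16 passed, beside 3.15% of all genes, and 0 were called by DESeq2, beside 5.66% higher and 2.89% lower. At an unadjusted p under 0.05, 3 were lower, beside 6.72%. Summed over the 4 members that act in translation, the level was 364 to 379 CPM in Control, 304 to 340 CPM in CTCFL-OE and 227 to 247 CPM in CTCFL-KD.

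CTCFL-KD and CTCFL-OE were also compared directly, without the Control libraries on either side of the difference. At an adjusted p under 0.05, 14 of the 33 members passed, beside 26.8% of all genes, with 8 higher in CTCFL-KD beside 15.3% and 6 lower beside 11.5%. DEGs numbered 11, beside 17.0%, with 6 higher and 5 lower beside 10.6% and 6.42%. The groups did not overlap for 14 members, beside 39.8%, with 8 higher and 6 lower beside 20.3% and 19.5%. The median log2 difference of the members was -0.06, against 0.04 over all genes. Of the lipid and sterol exporters 7 of 10 were higher in CTCFL-KD and 0 lower in edgeR's test and in DESeq2, with 1 lower at an unadjusted p under 0.05; the call of ABCA2 was lost in 10 of 20 alternatives. ABCG1 differed by 4.62 ± 0.24 on the log2 scale (adjusted p = 1.64e-06) and ABCA1 by 1.99 ± 0.34 (adjusted p = 0.00164). ABCB4, which passed in neither comparison with Control, was at 0.0912, 0.366 and 0.246 CPM in CTCFL-OE, with 0.812, 0.951 and 0.876 CPM in CTCFL-KD, a difference of 1.92 ± 0.50 (adjusted p = 0.016) that rests on at most 16 counts in a library. Of the drug efflux pumps 4 of 8 were lower in CTCFL-KD and 1 was higher. ABCG2 showed the largest of these differences, -2.84 ± 0.47 (adjusted p = 0.00152), with no overlap between the groups, and it passed in all 19 alternatives that could test it. ABCC4 (MRP4), an exporter of cyclic nucleotides and prostaglandins, differed by -1.01 ± 0.28 (adjusted p = 0.0236), ABCC3 by -1.04 ± 0.33 (adjusted p = 0.0389) and ABCC2 (MRP2) by -1.39 ± 0.45 (adjusted p = 0.0421). The ABCC2 difference rests on 3, 4 and 4 counts in CTCFL-KD, near the detection floor, and at most 14 in any library. The calls of ABCC2 and ABCC3 were lost in 10 of 17 and 9 of 20 alternatives, both with the replicate block among them. That of ABCC4 was lost in 3 of 20, and that of ABCC10, the pump that was higher, in 8 of 20. Without CTCFL-OE 2, ABCG2 alone of these pumps was called.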

How the data were processed

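Members and gene lists were chosen with earlier results of these data known, so the lists carry no support of their own. The authors deposited raw read counts per gene (TruSeq Stranded mRNA, NextSeq 500, paired-end). The study's methods name Trimmomatic, STAR and featureCounts, and the submitters' processing notes list Trimmomatic, kallisto, featureCounts and GRCh38. Which annotation release was used, whether strand was considered and how multi-mapped reads were handled is not given in the sources used here. The deposited counts hold 60660 Ensembl genes, of which 60419 were matched to GENCODE 44.

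Counts were tested with edgeR 4.0.16 (R 4.3.3) by quasi-likelihood with robust estimation, TMM scaling, filterByExpr (17794 genes kept) and Benjamini-Hochberg adjustment over all genes tested, on all 9 libraries with group as the term. The thresholds were the study's, adjusted p 0.1 for CTCFL-OE against Control and 0.05 for CTCFL-KD against Control, and 0.05 was also used between CTCFL-KD and CTCFL-OE. A DEG also had a log2 fold change beyond 1. The study used DESeq2, which is an alternative here (1.42.0). The scripts were tested on simulated data. CPM used TMM-scaled library sizes, and 3 counts were taken as the floor, for counting error only. Per-library values are given for ABCC6, ABCB1 and ABCG2, for every DEG against Control and for the member of each subfamily with the highest Control CPM per kilobase, and in each list of related genes the 3 called genes with the largest absolute log2 fold change in each comparison with Control are named. ABCB4, ABCC8, ABCF2, ABCG4, TAP1, TAP2, NR1H2, NR1H3 and COL1A2 were added to these after their values were seen.

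Replicate numbers were checked for pairing over 13025 genes. Deviations from the group mean correlated at 0.332, 0.185 and 0.232 between Control and CTCFL-KD libraries of the same number, which come from the numbers in the labels (0.145, 0.123 and 0.136 with length and GC trends removed). These libraries were treated as possible pairs only. The reported fit has no term for replicate, so its p-values for CTCFL-KD against Control do not take a pairing into account. For this comparison, values with the replicate block are given where they changed a call. Values of some genes that the rules above would name are not reported here and are not drawn.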

Additional observations from a re-analysis of the deposited data

How the results depend on the processing

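For CTCFL-OE against Control the number of members passing (1) became 8 with DESeq2 on all 9 libraries, 17 with DESeq2 and 13 with edgeR on the 2 groups compared, 4 with upper-quartile scaling, 5 with no low-count filter, 2 with the replicate block, 7 with the block and length and GC trends removed, and 8 with the trends removed alone. The share of all genes passing, 3.15% in the reported fit, was in the same order 8.55%, 23.6%, 20.2%, 3.95%, 4.01%, 2.39%, 9.58% and 10.1%. The number ranged from 0 to 18 when 1 library was left out, beside 0.240% to 27.4% of all genes. The number of DEGs (1) became 2, 5 and 4 with DESeq2 on all 9 libraries, DESeq2 on 2 groups and edgeR on 2 groups, 2 with no filter, 3 with the block and trends removed and 3 with the trends removed, and ranged from 0 to 5 with 1 library left out. For CTCFL-KD against CTCFL-OE the number passing (14) became 8 with edgeR on 2 groups, beside 15.5% of all genes, and ranged from 9 to 17 with 1 library left out, lowest without CTCFL-OE 2. For CTCFL-KD against Control every alternative gave 12 to 16 members passing and 9 to 12 DEGs, and ABCA1, ABCA2, ABCA3, ABCA5, ABCB9, ABCC3, ABCC6, ABCC10, ABCD3, ABCD4, ABCE1 and ABCG1 passed in all 20. The median log2 fold change of the members there (0.32) was 0.56 with at least 10 counts in every library, where 25 members were tested, and 0.25 to 0.41 in the others. With the replicate block 14 members passed there (9 higher, 5 lower), ABCA4 being lost. Between Control and CTCFL-OE, libraries of the same number correlated at -0.043, 0.218 and -0.052, and between CTCFL-OE and CTCFL-KD at 0.004, 0.073 and 0.014, so the numbers were not taken as pairs. The block added ABCA2 in CTCFL-OE, and between CTCFL-KD and CTCFL-OE it lost ABCC2 and ABCC3. No member that passed changed direction under any alternative run, but the median log2 difference of the members between CTCFL-KD and CTCFL-OE (-0.06) was positive with DESeq2 (0.04) and edgeR (0.07) on 2 groups, with at least 10 counts in every library (0.15), and without CTCFL-OE 3, CTCFL-KD 2 or CTCFL-KD 3, ranging from -0.14 to 0.10 with 1 library left out. Why the number in CTCFL-OE depends on the setting was not tested, except that fits on 2 groups leave the CTCFL-KD libraries out of the spread. By longest transcript in place of merged exons, the most abundant member was the same in 6 of 7 subfamilies, with ABCG1 in place of ABCG2. The 14 members not tested had at most 8 counts in any library.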
